A study of Arabidopsis thaliana with 36 samples.

Results

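The comparison is of roots on the chloride side of a split-root plate (Sp.KCl) after 2 days against roots in the same position after 8 hours. It rests on 6 of the 36 arrays of the study, 3 at each time, chosen by the sample titles. All plants were Arabidopsis thaliana of the Columbia ecotype. They were raised on agar with 0.5 mM ammonium succinate, 0.1 mM KNO3 and 3 mM sucrose, and the primary root was cut so that each plant carried a pair of main roots. They then stayed on ammonium succinate without nitrate until they were moved, 12 to 14 days old, to plates of 2 compartments with 0.3 mM sucrose. In Sp.KCl roots the sampled root grew on 5 mM KCl while the other root of the same plant grew on 5 mM KNO3. The other treatments were Sp.NO3 (that other root, on 5 mM KNO3), C.KCl (KCl in both compartments) and C.NO3 (KNO3 in both), each with 3 arrays at each of 3 times (2 hours, 8 hours, 2 days).

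The titles and the treatment field disagree for the chloride roots. The samples titled as split KCl are described there as having KCl in both compartments, and the reverse holds for the uniform KCl samples. The titles were followed. The numbers of called probe sets and the call of each named gene were computed again with the 2 sets exchanged. Plant age and time on the plate differ between the 2 times, the time of day of harvest is not given in the sources used here, and the 3 cannot be told apart.

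Roots sense nitrate both where it touches them and through signals that pass by way of the shoot. In a plant with nitrate on one side, the other side is locally short of nitrate while the plant as a whole is fed. Over days a young root system lengthens, branches and grows root hairs. Expansins and xyloglucan endotransglucosylases loosen and re-join the polymers of the wall as cells enlarge. Defensins and chitinases are secreted defence proteins.

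The values are MAS5 signals, the summary brightness of a set of probes on a linear scale. Median signals were 193 to 198 on the 2 days arrays and 208 to 218 on the 8 hours arrays. Replicate arrays correlated at 0.972 to 0.979 at 2 days and at 0.983 to 0.986 at 8 hours over log2 signals, within the range of 0.972 to 0.986 over all groups. The mean log2 ratio of 3′ to 5′ probe sets of actin, GAPDH and ubiquitin, a measure of RNA integrity, was 0.546 ± 0.0424 at 2 days and 0.384 ± 0.174 at 8 hours (SD, n = 3 each). Single arrays ran from 0.499 to 0.581 at 2 days and from 0.275 to 0.584 at 8 hours. The part of this index in the differences between the times was not tested. Of the markers of roots, the root hair expansins EXPA7 and EXPA18 summed to 2630 to 3330 at 2 days against 1420 to 1590 at 8 hours. Neither of the 2 shoot markers that the annotation gave a probe set was at 0 on any array. RCA (rubisco activase) gave 226, 261 and 258 at 2 days, against 312, 488 and 388 at 8 hours. LHCB4.2, a light-harvesting protein, gave 96.5, 110.1 and 14.5 at 2 days, against 93.8, 153 and 68.2 at 8 hours. Neither shoot marker passed the test in the fit to all 36 arrays (log2 differences -0.62 ± 0.28 and -0.62 ± 0.52), but RCA was called lower in a fit to the 6 arrays alone (adjusted p = 0.0162). Their summed signal was 272 to 372 at 2 days against 406 to 642 at 8 hours.

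Roots at 2 days differed from roots at 8 hours at 4960 of 15922 probe sets tested (31.2%, adjusted p below 0.05), of which 2305 (14.5%) were higher and 2655 (16.7%) lower at 2 days. Differences are given as log2(signal + 16) at 2 days minus 8 hours, followed by ± their standard error (SE), so they understate the change of dim genes. The median over all probe sets was -0.004. Large changes were mostly falls: among called probe sets that differed 2-fold or more, 648 were lower and 147 higher, and at 8-fold or more 42 were lower and 2 higher. Probe sets were kept by their mean over all 36 arrays, most of them from 2 hours and 8 hours. A gene bright only at 2 days thus passed this filter less easily than one dim only at 2 days. The part of the filter in the balance of falls and rises was not tested. The study's own type of test, an analysis of variance with Tukey's comparison, called 2536 probe sets. All were among the 4960, but the same values and a stricter cut made that likely in advance. Because these are whole roots, fewer cells of a type and less RNA per cell cannot be told apart in any result given here.

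The largest fall among genes with a signal of 200 or more was that of PDF2.1, a plant defensin, a small secreted antifungal protein. Its signals were 50.7, 40.5 and 17.7 at 2 days, against 1855, 1708 and 1608 at 8 hours. All 3 arrays at 2 days lay far below all 3 at 8 hours, and the log2 difference was -5.11 ± 0.21 (SE, adjusted p = 1.96e-17), a 34.6-fold fall. Its means by time were 127 (2 hours), 1724 (8 hours) and 36.3 (2 days), so the 8 hours level stood above both the earlier and the later one. Here and below, means at 2 hours are only set beside the others, and 8 hours was not tested against 2 hours. The other 11 genes of the largest falls carry locus names only. AT3G16530 had signals of 9.83, 8.93 and 4.68 at 2 days, against 547, 366 and 630 at 8 hours (log2 difference -4.45 ± 0.37, adjusted p = 1.6e-10). AT1G70880 had 76.6, 44.1 and 41.4 at 2 days, against 1061, 1165 and 1321 at 8 hours (-4.13 ± 0.29, adjusted p = 4.62e-12). AT1G64370 was the brightest of them at 8 hours, with 450, 238 and 265 at 2 days, against 4542, 4439 and 4147 at 8 hours (-3.77 ± 0.21, adjusted p = 3.7e-14). Lack of overlap between the arrays of the 2 times was a condition for naming these genes. It held at 4627 of the 4960 called probe sets. AT1G19530, AT1G26380, AT5G44400, AT4G14060, AT1G26410, AT4G12500, AT2G33850 and AT1G29660 fell, with log2 differences between -4.09 and -3.16. Of these 12 genes 8 were below the dim limit of 68.9 on every 2 days array, where the added 16 limits how large a fall can appear.

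Rises were smaller. AT4G33720 had the largest, with signals of 1461, 188 and 3670 at 2 days, against 80.6, 94.5 and 87.1 at 8 hours. Its 2 days arrays were all above its 8 hours arrays but spanned a wide range among themselves, and the log2 difference of 3.33 ± 0.72 (SE) had an adjusted p of 0.000687. AT5G15950 rose with little spread, its signals being 1337, 1242 and 1632 at 2 days, against 156, 166 and 176 at 8 hours (log2 difference 2.96 ± 0.20, adjusted p = 1.56e-12). Its means were 719.6 (2 hours), 166 (8 hours) and 1403 (2 days), the lowest being that at 8 hours. AT5G62420, AT1G23160, AT1G19900, AT2G40250, AT5G10130, AT3G19430 and AT3G48940 rose by log2 differences of 1.63 to 2.03. TBL41, of the trichome birefringence-like family that acetylates wall polysaccharides, gave 679, 775 and 596 at 2 days, against 253, 166 and 169 at 8 hours (log2 difference 1.74 ± 0.17, adjusted p = 2.62e-09). GH9B17, a member of the glycosyl hydrolase 9 family of cellulases, gave 263, 199.7 and 337 at 2 days, against 59.0, 108 and 68.6 at 8 hours (1.59 ± 0.26, adjusted p = 2.13e-05). AT1G65570 was the 1 root cap list gene that the annotation gave a probe set. Its signals were 886, 1024 and 978 at 2 days, against 235, 254 and 248 at 8 hours (1.90 ± 0.23, adjusted p = 2.8e-07).

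**Figure D1:**
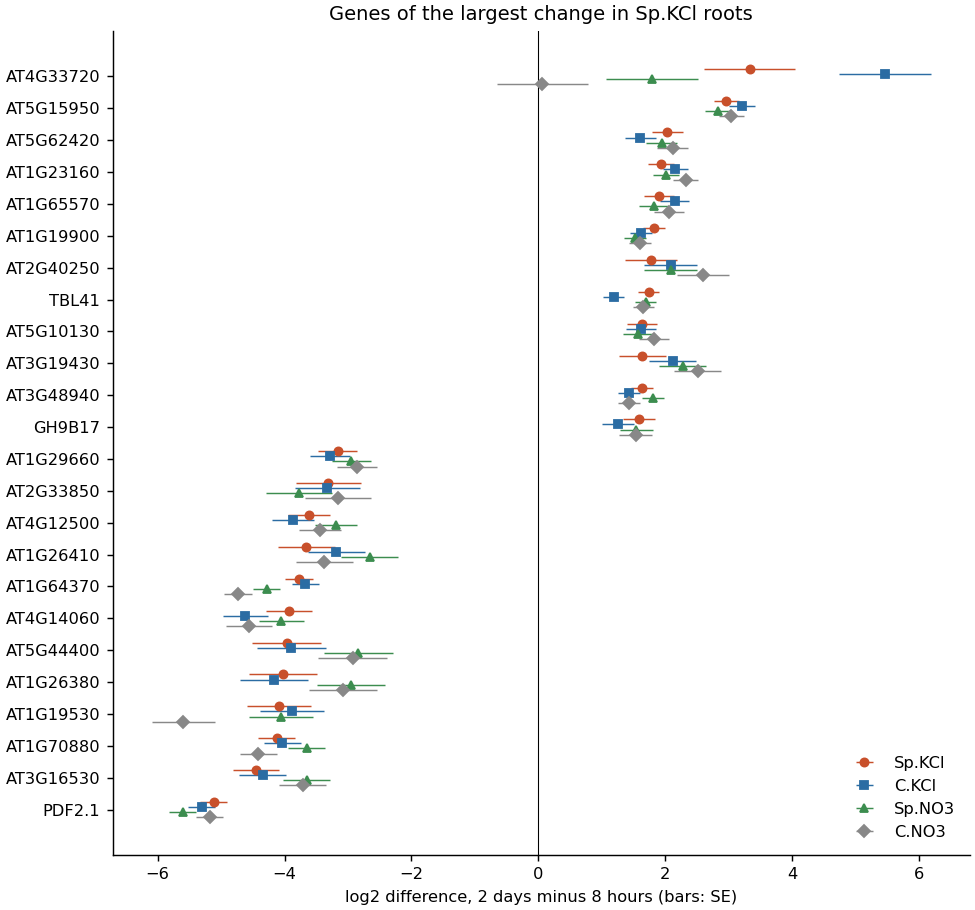
Log2 difference at 2 days minus 8 hours (horizontal axis) of the 12 genes that rose most and the 12 that fell most in Sp.KCl roots, one row a gene, with Sp.KCl as circles and the C.KCl, Sp.NO3 and C.NO3 roots as squares, triangles and diamonds; bars are standard errors of the fit. The rows run from AT4G33720 at 3.33 to PDF2.1 at -5.11 in Sp.KCl, and AT4G33720 is the row in which the 4 treatments spread most.

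Wall enzymes changed in both directions, also within a family. All 8 tested xyloglucan endotransglucosylases, which cut and re-join xyloglucan, passed the test (100%, against 31.2% of all probe sets), 6 of them higher and 2 lower, with a median log2 difference of 0.85. XTH18 rose most, with signals of 2004, 1508 and 1847 at 2 days, against 690, 775 and 672 at 8 hours (log2 difference 1.30 ± 0.23, adjusted p = 5.08e-05). XTH21 gave 988, 894 and 834 at 2 days, against 510.4, 352 and 319 at 8 hours (1.19 ± 0.19, adjusted p = 1.36e-05). XTH19 gave 3274, 2895 and 2824 at 2 days, against 1630, 1297 and 1439 at 8 hours (1.04 ± 0.20, adjusted p = 0.000225). The 3 genes were higher on every 2 days array than on any 8 hours array. XTH16, XTH33 and EXGT-A3 rose by 0.87, 0.82 and 0.37. XTH20 went the other way, with 249.7, 209 and 176 at 2 days, against 1034, 869 and 1142 at 8 hours and a log2 difference of -2.18 ± 0.28 (SE, adjusted p = 5.34e-07). XTH32 also fell (-0.72 ± 0.28, adjusted p = 0.0486), a call lost without replicate 1, 2 or 3 at 2 days or replicate 1, 2 or 3 at 8 hours (-0.65 to -0.81). Where a call is said to be lost without an array, 1 array was left out at a time and the values in parentheses are the log2 differences without it.

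Of 14 tested expansins, proteins that loosen the wall without cutting it, 4 rose, 4 fell and 6 did not pass the test (median 0.09). EXPA4 gave 420.4, 418 and 366 at 2 days, against 1906, 1817 and 1861 at 8 hours (-2.17 ± 0.20, adjusted p = 1.16e-09). EXPB3 gave 496, 557 and 413 at 2 days, against 2100, 1788 and 1698 at 8 hours (-1.90 ± 0.23, adjusted p = 2.7e-07). EXPA15 gave 595, 526 and 556 at 2 days, against 1481, 1317 and 1508 at 8 hours (-1.33 ± 0.17, adjusted p = 6.48e-07). These falls left a clear gap between the times, and for all 3 the 8 hours mean was the highest of the 3 times. The fourth that fell was EXLB1 (-0.48 ± 0.16). EXPA7 and EXPA18 are the expansins of growing root hairs. EXPA7 had signals of 1782, 1802 and 1335 at 2 days, against 793, 881 and 891 at 8 hours (0.92 ± 0.12, adjusted p = 8.55e-07) and EXPA18 of 1518, 1526 and 1291 at 2 days, against 626, 688 and 694 at 8 hours (1.09 ± 0.16, adjusted p = 3.67e-06). Both pairs of groups were apart. EXLA2 rose by 1.40 ± 0.35 (adjusted p = 0.00301) and EXPB1 by 0.47 ± 0.12 (adjusted p = 0.00291). The calls of EXLB1 and EXPB1 did not hold with the KCl sets exchanged, and that of EXLB1 was lost without replicate 2 or 3 at 2 days or replicate 2 at 8 hours (-0.39 to -0.48).

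Among 9 tested cellulose synthase-like and xylan synthesis genes, 2 rose, namely GUT2, a xylan xylosyltransferase (0.50 ± 0.13, adjusted p = 0.00273), and CSLC04, a glucan synthase of the xyloglucan backbone (0.51 ± 0.16, adjusted p = 0.0154). CSLC04 lost its call without replicate 2 at 2 days or replicate 2 or 3 at 8 hours (0.45 to 0.47). CCOAMT, a methyltransferase of the caffeoyl-CoA family in the lignin list, fell, with signals of 100.4, 74.3 and 73.1 at 2 days, against 477, 521 and 859.8 at 8 hours (-2.65 ± 0.32, adjusted p = 2.45e-07). The other 2 tested members of the lignin list, the acyltransferase HCT and the reductase CCR2, had -0.17 and 0.29 and did not pass, though HCT was called without replicate 3 at 2 days (-0.30). PMEPCRF, a pectin methylesterase, rose by 0.57 ± 0.13 (adjusted p = 0.00111), with no call once the KCl sets were exchanged, and ATPMEPCRB (-0.48) did not pass but was called with the sets exchanged (-0.99). The class III peroxidase PRX71 (AT5G64120) fell, with a log2 difference of -1.0 ± 0.37 (adjusted p = 0.0371), a call lost without replicate 1, 2 or 3 at 2 days or replicate 2 or 3 at 8 hours (-0.73 to -1.06). The other 3 tested peroxidases did not pass. None of 3 flavonoid synthesis genes passed limma's test in the fit to all 36 arrays or had an unadjusted p below 0.05 there. UGT78D1, a flavonol glycosyltransferase, gave 55.2, 147 and 62.5 at 2 days, against 222, 176 and 235 at 8 hours (-1.22 ± 0.63, adjusted p = 0.143), without overlap, and was called in a fit to the 6 arrays alone (adjusted p = 0.00765).

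**Figure D2:**
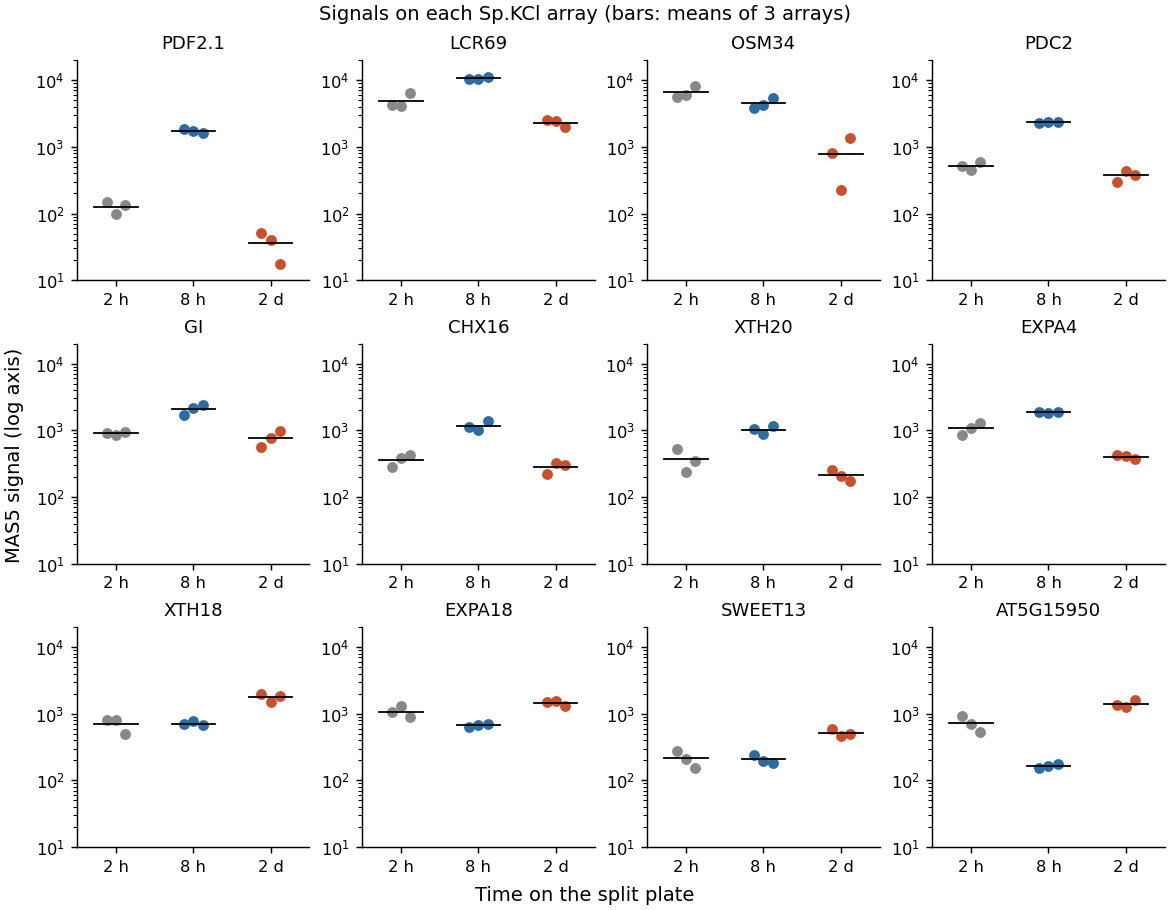
MAS5 signal (log vertical axis) on each Sp.KCl array for 12 genes, by time (2 hours, 8 hours, 2 days); points are arrays and bars the means of 3. PDF2.1, LCR69, PDC2, GI, CHX16, XTH20 and EXPA4 stand highest at 8 hours, OSM34 is lowest at 2 days, XTH18, EXPA18 and SWEET13 are highest at 2 days, and AT5G15950 is lowest at 8 hours.

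Defence-type proteins were the list with the lowest median among lists of 5 or more tested members (-1.47 over 8 members, against -0.004 over all probe sets): 5 fell, 2 rose and 1 did not pass. Beside PDF2.1, the defensin-like LCR69 had signals of 2519, 2441 and 1982 at 2 days, against 10580, 10500 and 11060 at 8 hours (-2.21 ± 0.16, adjusted p = 9.47e-12), with means of 4904 (2 hours), 10710 (8 hours) and 2314 (2 days). OSM34, osmotin 34, a thaumatin-like protein, gave 819.6, 227 and 1338 at 2 days, against 3796, 4290 and 5450 at 8 hours (-2.78 ± 0.41, adjusted p = 5.12e-06), the 2 days arrays being uneven but all below the 8 hours arrays. The chitinase ChiC gave 736, 654 and 978 at 2 days, against 2928, 2059 and 3051 at 8 hours (-1.74 ± 0.24, adjusted p = 1.41e-06). A second chitinase, CHI, gave 478, 424 and 495 at 2 days, against 778, 972 and 1682 at 8 hours (-1.19 ± 0.30, adjusted p = 0.00256). No array of 1 time reached into the range of the other in these 4 genes. LCR68, of the same family, rose, with 10240, 9362 and 7880 at 2 days, against 7264, 6890 and 6916 at 8 hours (0.37 ± 0.09, adjusted p = 0.00138). PR-1-LIKE also rose, by 0.55 ± 0.21 (adjusted p = 0.0426), a call lost without replicate 2 or 3 at 2 days or replicate 1, 2 or 3 at 8 hours (0.46 to 0.59) and with the KCl sets exchanged (0.30). PDF2.5 had 0.15 without passing. PDF2.1, LCR68 and LCR69 are close relatives, and hybridisation of 1 transcript to another's probes was not tested.

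Of 6 tested stress proteins 1 fell and 1 rose, each without overlap. The dehydrin LTI30 fell, with 5888, 5268 and 4688 at 2 days, against 9888, 12030 and 9827 at 8 hours (-1.0 ± 0.11, adjusted p = 5.79e-08). The late embryogenesis abundant protein LEA27 (AT2G46140) rose, with 4380, 4342 and 3355 at 2 days, against 2531, 2332 and 2606 at 8 hours (0.68 ± 0.09, adjusted p = 1.49e-06). The signals of the bright COR47, another dehydrin, overlapped, with 0.18 and no call. CML38, a calmodulin-like protein in the core hypoxia list, had 113, 108 and 8.02 at 2 days, against 149.6, 141 and 303 at 8 hours. Its lowest signal was that of replicate 3 at 2 days. The fall of -1.48 ± 0.49 (adjusted p = 0.022) was -0.68 without that array and -1.15 without replicate 3 at 8 hours, both with no call, and it was not called in a fit to the 6 arrays alone (adjusted p = 0.0597). It was the 1 called of 11 calmodulin-like proteins and glutamate receptors. Of the 7 tested hypoxia genes, CML38 and AT5G66985 (-0.43 ± 0.14, adjusted p = 0.0194) fell and 5 did not pass. The call of AT5G66985 was lost without replicate 3 at 2 days or replicate 1 or 3 at 8 hours (-0.34 to -0.40). In a fit to the 6 arrays alone AT4G27450 (-0.89) and AT4G10270 (-0.51) were also called lower (adjusted p = 0.00053 and 0.0465). PDC2, a pyruvate decarboxylase, the first step of ethanol fermentation, fell far more, with signals of 299, 436 and 384 at 2 days, against 2250, 2357 and 2368 at 8 hours (-2.60 ± 0.17, adjusted p = 9.25e-13) and means of 518 (2 hours), 2325 (8 hours) and 373 (2 days). The glycolytic enzymes ENOC (enolase), GAPC2 (glyceraldehyde-3-phosphate dehydrogenase) and PGM (phosphoglycerate mutase) rose by 0.34, 0.34 and 0.37, and each lost its call without at least 1 array: ENOC without replicate 2 at 8 hours (0.26), GAPC2 without replicate 3 at 8 hours (0.27) and PGM without replicate 1 or 3 at 2 days or replicate 1 at 8 hours (0.25 to 0.30). With quantile normalization GAPC2 had 0.01 and no call.

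The NRT and NPF families, whose members carry nitrate, chloride, peptides or hormones, had 5 of 12 tested members called, 2 higher and 3 lower. NPF4.3 (AT1G59740) changed most, with signals of 103, 72.0 and 92.7 at 2 days, against 370.3, 408 and 269 at 8 hours (-1.79 ± 0.25, adjusted p = 2.03e-06), well apart between the times. NPF4.4 (AT1G33440) and NPF3.1 (AT1G68570) fell, with log2 differences of -0.80 ± 0.22 and -0.56 ± 0.17 (adjusted p = 0.00585 and 0.0108). AT3G45710 gave 2452, 2573 and 2843 at 2 days, against 1725, 1907 and 2131 at 8 hours (0.45 ± 0.13, adjusted p = 0.00682) and NPF6.2 (AT2G26690) gave 469, 439.9 and 403 at 2 days, against 310.1, 353 and 225 at 8 hours (0.56 ± 0.21, adjusted p = 0.0465). Both rose, but with the KCl sets exchanged their log2 differences were -0.31 and -0.34 without a call. NPF4.4 was at -0.30 with the sets exchanged, also without a call. Single arrays mattered too: the call was lost for NPF4.4 without replicate 2 at 8 hours (-0.55), for NPF3.1 without replicate 1 or 2 at 2 days (-0.46 to -0.48) and for NPF6.2 without replicate 1, 2 or 3 at 2 days or replicate 1 or 3 at 8 hours (0.38 to 0.61). Of the 4 nitrate response regulators tested, AT3G25790 rose, with 303, 282 and 323 at 2 days, against 134, 142 and 145 at 8 hours (1.02 ± 0.17, adjusted p = 3.45e-05), the groups being apart. The other 3 did not pass, AT1G68670 and AT1G74840 among them at -0.15 and -0.09, and AT1G68670 was called lower with the sets exchanged (-0.48). CHX16, a cation/proton exchanger and the 1 tested member of the potassium list, fell, with 222, 322 and 301 at 2 days, against 1118, 1006 and 1391 at 8 hours (-2.0 ± 0.24, adjusted p = 1.76e-07) and means of 361 (2 hours), 1172 (8 hours) and 282 (2 days). SIR, the sulfite reductase, rose by 0.38 ± 0.13 (adjusted p = 0.0234), as the 1 called of 4 sulfate genes. Its call was lost without replicate 3 at 2 days or replicate 2 or 3 at 8 hours (0.26 to 0.38) and with the KCl sets exchanged (0.17).

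Among 11 tested sugar carriers, 5 fell and 1 rose. SWEET13, a sucrose carrier, had 580.5, 468 and 498 at 2 days, against 241, 197 and 185 at 8 hours (1.25 ± 0.26, adjusted p = 0.000471). Every 2 days array was above every 8 hours array, and its call held under every alternative in which it was tested. TMT1 and TMT2 carry sugars into the vacuole. TMT1 gave 1068, 1256 and 1158 at 2 days, against 1559, 1833 and 2004 at 8 hours (-0.62 ± 0.12, adjusted p = 0.00022). TMT2 gave 318, 379 and 380.1 at 2 days, against 612, 564 and 546 at 8 hours (-0.66 ± 0.17, adjusted p = 0.0035). SWEET1, SWEET2 and SWEET17 fell, with log2 differences of -0.57 ± 0.15, -0.76 ± 0.27 and -0.39 ± 0.13. With the KCl sets exchanged the list held 2 called members, not 6, TMT1 and TMT2 had no call, and SWEET1 had 0.06. The call of SWEET2 was lost without replicate 1, 2 or 3 at 2 days or replicate 1, 2 or 3 at 8 hours (-0.68 to -0.82) and that of SWEET17 without replicate 3 at 2 days or replicate 2 or 3 at 8 hours (-0.29 to -0.38). Both tested members of the sugar and carbon starvation list fell. AT3G15450 gave 834, 1351 and 1019 at 2 days, against 5129, 4641 and 3625 at 8 hours (-2.06 ± 0.50, adjusted p = 0.00194), and AT5G57655 fell, with a log2 difference of -0.70 ± 0.20 (adjusted p = 0.00838).

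UDP-glycosyltransferases attach sugars to small molecules. Of 36 tested 11 fell, 2 rose and 23 did not pass, with a median of -0.45. UGT73B1 fell most, with 282, 337 and 302 at 2 days, against 1005, 1181 and 1303 at 8 hours (-1.86 ± 0.20, adjusted p = 2.5e-08). UGT73B5 gave 775, 728 and 881 at 2 days, against 1506, 1642 and 1747 at 8 hours (-1.02 ± 0.19, adjusted p = 0.000122); both act on flavonoids. UGT72E1 and UGT72E2, which glucosylate lignin precursors, fell, with log2 differences of -0.84 ± 0.21 and -0.57 ± 0.14 (adjusted p = 0.00295 and 0.00213), and UGT76C2, a cytokinin glucosyltransferase, also fell, at -0.45 ± 0.13 (adjusted p = 0.01). UGT76B1 rose by 0.56 ± 0.14 (adjusted p = 0.00309) and UGT84A4 by 0.37 ± 0.13 (adjusted p = 0.0265). Of the 13 calls 6 held under every alternative in which they were tested; UGT76B1, UGT84A4 and UGT76C2 were not among them, and with the KCl sets exchanged they were at 0.13, -0.02 and -0.24 without a call.

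Of 10 tested cytochromes P450, oxidising enzymes of many pathways, 4 fell and 1 rose. CYP71B37 gave 546, 564 and 468 at 2 days, against 1710, 1638 and 1436 at 8 hours (-1.57 ± 0.15, adjusted p = 1.67e-09). CYP71B26 gave 392, 439 and 486 at 2 days, against 973, 925 and 1352 at 8 hours (-1.26 ± 0.19, adjusted p = 7.23e-06). CYP71B6 gave 1599, 1408 and 1794 at 2 days, against 2700, 2390 and 3417 at 8 hours (-0.81 ± 0.20, adjusted p = 0.00206). The fourth, CYP71B23, fell, with a log2 difference of -0.63 ± 0.24 (adjusted p = 0.0435) and lost its call without replicate 1 or 2 at 2 days or replicate 2 or 3 at 8 hours (-0.51 to -0.62). Of the 10 tested genes 7 were CYP71B members, and the other 3 of these (CYP71B28, CYP71B34 and CYP71B29) had -0.14, -0.13 and 0.37 without passing. CYP78A9 rose, with 122, 185 and 149.9 at 2 days, against 85.5, 58.5 and 45.4 at 8 hours (1.10 ± 0.29, adjusted p = 0.00479). Of 13 glutathione transferases, which join glutathione to reactive molecules, 3 rose and 2 fell. ATGSTF13 had the largest change, with 1473, 1263 and 995 at 2 days, against 519, 592 and 495 at 8 hours (1.18 ± 0.20, adjusted p = 4.19e-05), while GSTF4 and GSTU23 fell, with log2 differences of -0.68 ± 0.12 and -0.66 ± 0.15. GSTU22 and GSTU27 rose by 0.26 and 0.34 and lost their calls, GSTU22 without replicate 1 at 2 days or replicate 1 or 3 at 8 hours (0.16 to 0.26) and GSTU27 without replicate 1 or 2 at 2 days or replicate 1 at 8 hours (0.26 to 0.32). GSTU22 was at 0.10 with quantile normalization and GSTU27 at -0.09 with the KCl sets exchanged, both with no call. Among 6 CC-type glutaredoxins, AT1G06830 fell, with 94.0, 16.9 and 46.6 at 2 days, against 288, 178 and 356 at 8 hours (-2.20 ± 0.40, adjusted p = 8.2e-05) and means of 20.1 (2 hours), 274 (8 hours) and 52.5 (2 days), and GRX480 fell, with a log2 difference of -0.49 ± 0.19 (adjusted p = 0.0488), a call lost without replicate 1, 2 or 3 at 2 days or replicate 1 or 3 at 8 hours (-0.41 to -0.54) and at 0.10 with the KCl sets exchanged.

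All 3 gibberellin receptors were lower at 2 days. GID1A had 240.3, 222 and 166 at 2 days, against 475, 676 and 538 at 8 hours (-1.36 ± 0.24, adjusted p = 7.84e-05). GID1C had 85.4, 91.8 and 55.2 at 2 days, against 204, 188 and 189 at 8 hours (-1.19 ± 0.20, adjusted p = 2.76e-05). GID1B had 529, 559 and 654 at 2 days, against 842, 1101 and 1435 at 8 hours (-0.91 ± 0.18, adjusted p = 0.00035). No receptor's groups overlapped, and the 3 calls held under every alternative in which they were tested. The F-box proteins SLY1 and SLY2, which act after the receptors, did not pass (-0.13 and -0.05). Of 8 tested auxin genes, YUC6, which makes auxin, fell, with a log2 difference of -1.10 ± 0.29 (adjusted p = 0.00444) and WES1, which joins auxin to amino acids, fell, at -0.45 ± 0.14 (adjusted p = 0.011), both with no call once the KCl sets were exchanged. The type-A response regulator RR16, a cytokinin response gene, gave 31.4, 42.0 and 38.1 at 2 days, against 79.5, 105 and 84.2 at 8 hours (-0.99 ± 0.24, adjusted p = 0.00225) and likewise had no call with the sets exchanged. EIN3, the transcription factor of ethylene signalling, fell, with a log2 difference of -0.63 ± 0.18 (adjusted p = 0.00697), a call lost without replicate 1 at 2 days or replicate 3 at 8 hours (-0.48 to -0.52).

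GI (GIGANTEA), whose transcript cycles over the day, was the 1 gene of the circadian clock list that the annotation gave a probe set. Its signals were 558, 761 and 962 at 2 days, against 1704, 2169 and 2375 at 8 hours (-1.46 ± 0.17, adjusted p = 9.9e-08), with means of 905 (2 hours), 2083 (8 hours) and 760.3 (2 days). The 2 days arrays lay below the 8 hours arrays without overlap. HYH, a bZIP factor of light signalling, rose, with 649, 483 and 536 at 2 days, against 352, 310 and 375 at 8 hours (0.65 ± 0.17, adjusted p = 0.00304). Of 7 bHLH factors, MYC3 and MYC4, which act in jasmonate responses, fell, with log2 differences of -1.05 ± 0.18 and -0.42 ± 0.14 (adjusted p = 4.95e-05 and 0.0184), the second call being lost without replicate 1 at 2 days or replicate 3 at 8 hours (-0.35 to -0.37). Of 17 bZIP and homeobox factors 3 fell and 1 rose. The rise was bZIP58, with 157, 141 and 162 at 2 days, against 77.6, 81.0 and 66.5 at 8 hours (0.90 ± 0.19, adjusted p = 0.000679), and the falls were bZIP48 (-1.41 ± 0.29), BZIP24 (-0.64 ± 0.23) and PHV (-0.51 ± 0.13), a class III homeodomain factor of organ polarity. bZIP48 and BZIP24 were dim, the call of BZIP24 was lost without replicate 1 or 2 at 2 days or replicate 2 or 3 at 8 hours (-0.53 to -0.66), and that of PHV with the KCl sets exchanged (-0.05). None of 6 tested WRKY factors passed in limma's test, nor did any reach an unadjusted p below 0.05, their log2 differences running from -0.20 to 0.24.

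Of 14 autophagy and senescence genes, 3 fell, 1 rose and 10 did not pass (28.6% called, against 31.2% of all probe sets). Of the 14 genes 12 were below 0, with a list median of -0.16, and 5 had an unadjusted p below 0.05 in limma's test. ATG8D, an autophagosome coat protein, gave 420, 348 and 323 at 2 days, against 957, 944 and 849 at 8 hours (-1.30 ± 0.12, adjusted p = 5.39e-10). YLS5 gave 2087, 1601 and 1801 at 2 days, against 3720, 3057 and 4340 at 8 hours (-1.01 ± 0.20, adjusted p = 0.000293). ATG8B gave 339, 246 and 311 at 2 days, against 536, 506 and 537 at 8 hours (-0.80 ± 0.14, adjusted p = 7.02e-05). Their groups were apart, and ATG8B had no call with the KCl sets exchanged. ATG8H rose by 0.45 ± 0.12 (adjusted p = 0.00428). The linker histone HIS1-3 fell, with 173, 76.7 and 82.5 at 2 days, against 391, 695 and 733 at 8 hours (-2.32 ± 0.36, adjusted p = 1.05e-05), while HTB2, a histone H2B, rose by 0.46 ± 0.18 (adjusted p = 0.0481) with overlapping signals and the other 5 of 7 histones did not pass. Of 7 cell division genes the Aurora kinases AUR1 and AUR2 rose by 0.36 ± 0.11 and 0.44 ± 0.16 (adjusted p = 0.015 and 0.0308), both with calls that single arrays decided. The call was lost for AUR1 without replicate 2 at 2 days or replicate 3 at 8 hours (0.29 to 0.34), for AUR2 without replicate 1 or 3 at 2 days or replicate 2 or 3 at 8 hours (0.36 to 0.44) and for HTB2 without replicate 1 or 2 at 2 days or replicate 2 or 3 at 8 hours (0.35 to 0.44). AUR2 also had no call with the KCl sets exchanged (0.25) or in a fit to the 6 arrays alone (adjusted p = 0.0585). Among 10 secreted peptide genes CLE41 fell, with a log2 difference of -0.63 ± 0.15 (adjusted p = 0.00177), and RALFL33 and RALFL22 rose by 0.44 ± 0.11 and 0.53 ± 0.15 (adjusted p = 0.00308 and 0.0062). RALFL33 had no call with the KCl sets exchanged (0.17), and RALFL22 none without replicate 1 at 2 days (0.40).

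**Figure D3:**
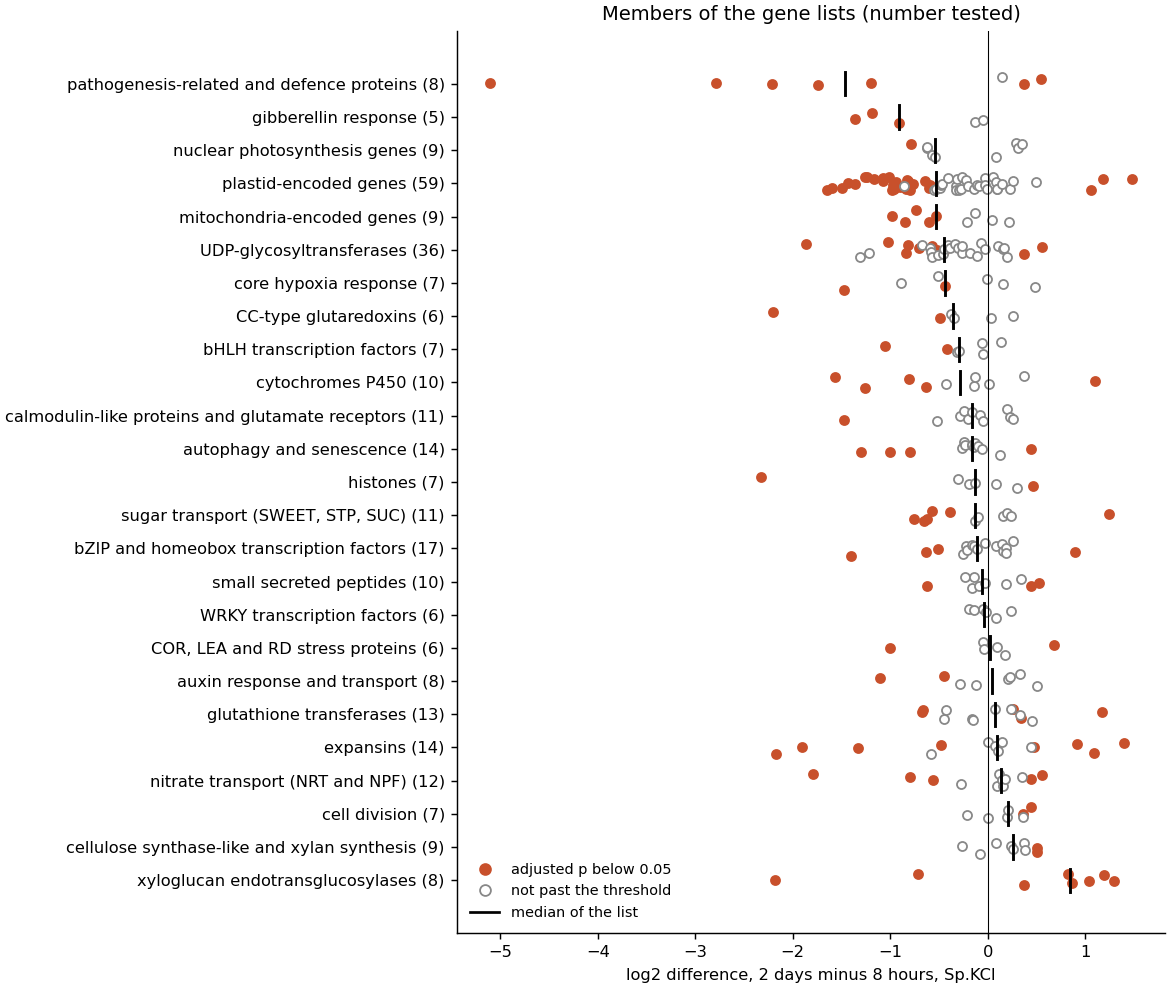
Log2 difference at 2 days minus 8 hours in Sp.KCl roots (horizontal axis) of every tested member of the gene lists with 5 or more tested members, one row a list; filled points passed the test, open points did not, and bars are list medians. The defence list has the lowest median, -1.47, and the xyloglucan endotransglucosylases the highest, 0.85.

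Set beside the 31.2% called over all probe sets, the share of tested members called was 100% in the xyloglucan endotransglucosylases, 87.5% in the defence proteins, 60.0% in the gibberellin list, 57.1% in the expansins, 54.5% in the sugar carriers and 50.8% in the plastid genes. Of the cytochromes P450 5 of 10 were called, and the share was 41.7% in the NRT and NPF carriers, 38.5% in the glutathione transferases and 36.1% in the UDP-glycosyltransferases. The share was 55.6% in the mitochondrial genes and 33.3% in the stress proteins and in the CC-type glutaredoxins. Of the secreted peptide genes 3 of 10 were called, and of the auxin genes 2 of 8. The share was 28.6% in the autophagy, cell division, histone, bHLH and hypoxia lists. It was 23.5% in the bZIP and homeobox factors and 22.2% in the cellulose synthase-like and xylan synthesis genes. In the nuclear photosynthesis genes it was 11.1%, and in the calmodulin-like proteins and glutamate receptors 9.09%. These shares were not tested against one another or against all probe sets. The lists were chosen with earlier results of these data known, so a high share cannot be told apart from that choice.

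Genes of the plastid genome formed the largest list. Of 59 tested 27 fell, 3 rose and 29 did not pass (median -0.53, with 48 of 59 below 0). ndhD, a subunit of the plastid NADH dehydrogenase-like complex, gave 335, 506 and 332 at 2 days, against 1095, 1580 and 1098 at 8 hours (-1.65 ± 0.24, adjusted p = 3.27e-06), while atpF, of the ATP synthase, gave 183, 204 and 118 at 2 days, against 216, 844 and 806 at 8 hours (-1.60 ± 0.39, adjusted p = 0.00207). psbL, of photosystem II, gave 86.4, 186 and 251 at 2 days, against 352, 549 and 582 at 8 hours (-1.50 ± 0.26, adjusted p = 6.41e-05). In ndhD and psbL every 2 days array was below every 8 hours array by a wide gap, whereas replicate 1 at 8 hours came close to the 2 days arrays in atpF. Photosystem genes psbI (-1.08 ± 0.12), psbE (-1.07 ± 0.28) and psbF (-1.01 ± 0.20), the ribosomal protein gene rps2 (-1.24 ± 0.22) and the RNA polymerase gene rpoC2 (-1.17 ± 0.25) fell as well. The 3 that rose encode parts of the plastid ribosome and RNA polymerase. The ribosomal protein gene rpl16 gave 2122, 2739 and 2492 at 2 days, against 801, 866 and 915 at 8 hours (1.49 ± 0.16, adjusted p = 2.98e-08). Another, rpl36, gave 1505, 1983 and 2370 at 2 days, against 748, 1029 and 979 at 8 hours (1.06 ± 0.21, adjusted p = 0.000226) and had no call with the KCl sets exchanged. The RNA polymerase gene rpoA gave 4227, 4660 and 5474 at 2 days, against 2454, 2481 and 1495 at 8 hours (1.18 ± 0.24, adjusted p = 0.000351).

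Arrays of 1 time were uneven in the plastid genes. The median log2 signal of the 59 was 8.91, 9.47 and 9.37 at 2 days, against 9.58, 10.28 and 10.09 at 8 hours, so that the lowest 8 hours array was near the highest 2 days array. petG was 50.3 in replicate 1 at 8 hours and 373 and 382 in the others. Without that replicate 35 of the 59 were called, and without replicate 2 at 8 hours 21 were called. Of 9 tested mitochondrial genes 5 fell. The dim nad5, of the respiratory NADH dehydrogenase, gave 50.5, 32.5 and 46.8 at 2 days, against 97.8, 105 and 97.4 at 8 hours (-0.98 ± 0.20, adjusted p = 0.000414). For ccb452 the signals were 91.6, 106 and 156 at 2 days, against 213, 205 and 246 at 8 hours (-0.85 ± 0.18, adjusted p = 0.000424). With the KCl sets exchanged 3 mitochondrial genes were called, nad5 not among them, and 3 or 4 when 1 array was left out. Of 9 nuclear photosynthesis genes 8 did not pass. LHCB4.1 fell, with 193, 229 and 251 at 2 days, against 327, 486 and 391 at 8 hours (-0.79 ± 0.29, adjusted p = 0.0352), a call lost without replicate 1 or 2 at 2 days or replicate 2 or 3 at 8 hours (-0.65 to -0.81). Of the 30 plastid calls 10 were lost when 1 or another of the 6 arrays was left out. The shoot marker RCA was lower at 2 days without overlap, as given above, and the part of leaf tissue or RNA integrity in the plastid values was not tested.

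**Figure D4:**
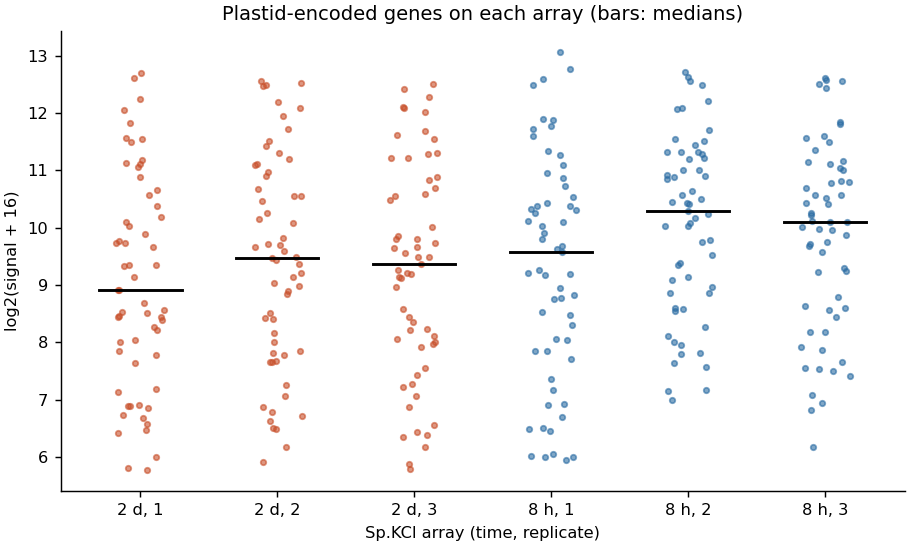
Log2(signal + 16) of the 59 tested plastid-encoded genes (vertical axis) on each Sp.KCl array at 2 days (left 3) and 8 hours (right 3); points are genes and bars medians. Medians are 8.91 to 9.47 at 2 days and 9.58 to 10.28 at 8 hours.

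The same interval was measured in the other 3 treatments, on arrays that are not shared with Sp.KCl. Across 15922 probe sets the log2 difference in Sp.KCl correlated with that in C.KCl at 0.873, in Sp.NO3 at 0.884 and in C.NO3 at 0.874 (Pearson's r across probe sets, which are not independent replicates; all arrays share the sampling times). Of the 795 probe sets called with a 2-fold or larger change in Sp.KCl, 789 had the same sign in C.KCl, 790 in Sp.NO3 and 792 in C.NO3. The median change of the 648 falls was -1.36 in Sp.KCl, beside -1.30, -1.33 and -1.41 in the 3 treatments in that order, and that of the 147 rises was 1.18, beside 1.10, 1.15 and 1.22. PDF2.1 changed by -5.11 in Sp.KCl, beside -5.30 in C.KCl, -5.60 in Sp.NO3 and -5.18 in C.NO3. XTH20 changed by -2.18, beside -2.33 in C.KCl, -2.29 in Sp.NO3 and -2.47 in C.NO3, and PDC2 by -2.60, beside -2.35 in C.KCl, -3.08 in Sp.NO3 and -2.71 in C.NO3. AT4G33720 was uneven, at 3.33 in Sp.KCl, beside 5.46 in C.KCl, 1.79 in Sp.NO3 and 0.06 in C.NO3, but its difference of changes from C.NO3 was 3.26 ± 1.02 (SE, adjusted p = 0.61).

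The test of a difference between treatments found very few probe sets. The change in Sp.KCl differed from that in C.KCl at 2 probe sets (0.0126%), from that in Sp.NO3 at 1 (0.00628%) and from that in C.NO3 at 1 (0.00628%), all with a lower value in Sp.KCl. That direction did not hold for every call in other fits. With quantile normalization 1 call was higher and 2 lower against C.KCl, and 2 were higher and 2 lower against C.NO3. With the replicate number as a block 9 were higher and 4 lower against C.KCl, and 1 was higher and 2 lower against C.NO3. Without replicate 3 of Sp.KCl at 2 days, 2 were higher and 1 lower against C.KCl. Unadjusted p-values below 0.05 were found at 935, 742 and 1118 probe sets (5.87%, 4.66% and 7.02%). The median standard error of such a difference was 0.219, which limits what 3 arrays a group can show. No member of the gene lists was among the calls.

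AT4G01390 was the 1 named gene. In Sp.KCl its signals were 191, 212 and 117 at 2 days, against 1633, 1646 and 1321 at 8 hours (log2 difference -3.06 ± 0.23, adjusted p = 2.38e-11). In C.KCl they were 583, 556 and 956 at 2 days, against 1649, 1616 and 1395 at 8 hours, a smaller fall of -1.18 ± 0.24 (SE). The difference between the falls was -1.89 ± 0.33 (SE, adjusted p = 0.0235). In Sp.NO3 the change was -2.66 and in C.NO3 -3.92, so at 2 days C.KCl roots kept the highest mean, 698, with 173 in Sp.KCl, 252 in Sp.NO3 and 61.7 in C.NO3. The probe set 249255_at, with no gene listed, gave 17.3, 37.6 and 61.5 at 2 days, against 135, 137 and 130.1 at 8 hours in Sp.KCl. Its change of -1.53 ± 0.21 (SE) differed from that in C.KCl by -1.73 ± 0.30 (adjusted p = 0.0235) and from that in C.NO3 by -1.71 ± 0.30 (adjusted p = 0.04). All 3 of its 2 days signals were below the dim limit, and the size depended on the offset: the difference from C.KCl was -2.15 with 1 added and -1.11 with 64 added, and that from C.NO3 -2.13 and -1.09. The probe set 264734_at, also without a gene, gave 97.4, 83.2 and 63.6 at 2 days, against 227, 291 and 189 at 8 hours in Sp.KCl and 540, 653 and 691 at 2 days, against 484, 373 and 288 at 8 hours in Sp.NO3. The difference of changes was -2.08 ± 0.36 (adjusted p = 0.0363). From C.NO3 it was -1.95 ± 0.36 (adjusted p = 0.0523) and from C.KCl -1.45 ± 0.36 (adjusted p = 0.288), both without a call. Each of these calls was lost without at least 1 array. Over the fits that left out 1 array, the adjusted p of AT4G01390 ran from 0.0305 to 0.14. That of 249255_at ran from 0.000588 to 0.116 against C.KCl and from 0.000756 to 0.18 against C.NO3, and that of 264734_at from 0.0212 to 0.291.

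**Figure D5:**
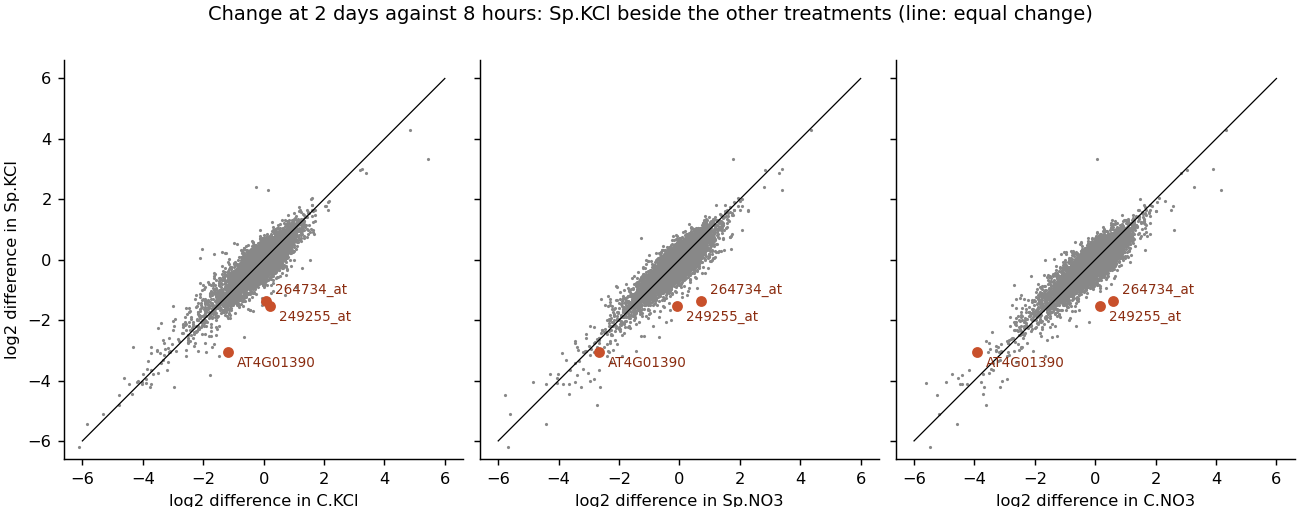
Log2 difference at 2 days minus 8 hours in Sp.KCl (vertical axes) against that in C.KCl, Sp.NO3 and C.NO3 (horizontal axes, left to right) for all 15922 probe sets; the line marks equal change. Most points follow the line, and the 3 marked probe sets are those at which a difference between changes was called, with AT4G01390 below the line in C.KCl (-3.06 in Sp.KCl and -1.18 in C.KCl).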

How the data were processed

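The authors deposited MAS5 signal intensities of 36 arrays, 1 for each RNA sample, as 1 table; per the submitters' processing notes the tool was MAS5, with no version given. The intensities are linear, with a mean of 500 on each array after 2% was trimmed at either end, and no detection calls or scanner files were used. Here 16 was added, log2 taken, 64 control probe sets left out and the 15922 probe sets with a mean at or above the 30th percentile (a signal of 68.9) kept. limma 3.58.1 in R 4.3.3 fitted 12 group means to all 36 arrays (moderated tests with a mean-variance trend, Benjamini-Hochberg adjustment), and differences of changes were contrasts of the same fit. The fit was tested on simulated data. Genes came from the platform annotation and RefSeq locus names. Of 22810 probe sets 13513 had 1 gene, 503 several and 8730 none. The lists hold only genes that this annotation gave a probe set, so counts over a list do not cover a whole family. A gene with several probe sets was given by the brightest.

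Groups follow the titles. Nothing says whether the 3 repeats came from separate plants or batches, so p-values measure the spread between these samples. The number of arrays limits the precision. The comparison and the gene lists were chosen with earlier results of these data known, and 27 names that matched a list by spelling alone were taken out. Named genes are the 12 largest changes in each direction (1 gene, called, no overlap, mean signal of 200 or more in the higher group), up to 4 called members a direction and 2 others of each list, other called members by value, and up to 6 genes a difference of changes. Alternatives were other offsets (1 and 64), no filter or the 50th percentile, quantile normalization, the 6 arrays alone, the replicate number as a block, single arrays left out, exchanged KCl sets and the study's analysis of variance. Same-numbered Sp.KCl arrays of the 2 times deviated together weakly (correlations 0.0342, 0.0174 and 0.167, beside -0.114 to 0.0793 for different numbers). The numbers were therefore not taken as pairs. Fitted as a block over all arrays, the number gave 5661 calls, against 4960 without it. The correlations did not cover arrays of different treatments at 1 time, and the 2 roots of a split plant supply Sp.KCl and Sp.NO3. The main fit took all arrays as independent, so the errors of differences between treatments leave out any such pairing.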

Additional observations from a re-analysis of the deposited data

Results flagged for a closer look

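The change at 2 days against 8 hours differed between Sp.KCl and another treatment, by the test of the difference itself, in 4 cases. AT4G01390 fell more in Sp.KCl than in C.KCl, with a log2 difference of changes of -1.89. The probe set 249255_at had a difference of -1.73 from C.KCl and of -1.71 from C.NO3. The probe set 264734_at had a difference of -2.08 from Sp.NO3, which was -0.63 without a call when the KCl sets were exchanged. Each call was lost when at least 1 single array was left out, with adjusted p-values of up to 0.14 for AT4G01390, 0.116 and 0.18 for 249255_at and 0.291 for 264734_at. Groups of 3 are too small for the test of an outlying sample used for larger groups, which was not run.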

How the results depend on the processing

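The count of 4960 changed probe sets ran from 4150 to 5661 under the other offsets, filters, scaling, blocks and labels, and from 3887 to 4450 when 1 array was left out; the study's test called 2536. Quantile normalization gave 54.2% of calls higher at 2 days, against 46.5%. Of 188 named genes that were called, 121 kept the call in every fit in which they were tested. With the KCl sets exchanged 8 turned sign: GRX480 (0.10), UGT84A4 (-0.023), GSTU27 (-0.087), AT2G26690 (-0.34), AT3G45710 (-0.31), SWEET1 (0.064), 249255_at (0.20) and 264734_at (0.087). Of 70 named genes that were not called, 17 gained a call with the exchange, 18 with the replicate block (RCA among them, adjusted p = 0.0212), 10 with the compared arrays alone and 9 with quantile normalization. CYP51G2 (0.62) and AT1G77750 (0.39) gained theirs with the sign turned by the exchange. Calls of a different change were few throughout. Against C.KCl the count of 2 became 1 with the 50th percentile filter or the compared arrays alone, 13 (9 higher, 4 lower) with the replicate block, and 0 to 3 without 1 array. Against Sp.NO3 the count of 1 became 0 with 64 added, no filter or quantile normalization, 2 with the compared arrays alone, 7 with exchanged sets, and 0 to 1 without 1 array. Against C.NO3 the count of 1 became 2 with 1 added, 0 with no filter, the 50th percentile or the compared arrays alone, 4 with quantile normalization, 3 (1 higher, 2 lower) with the replicate block, 10 (7 higher, 3 lower) with exchanged sets, and 0 to 2 without 1 array. By construction the exchange turns the sign against C.KCl (1.89 for AT4G01390 and 1.73 for 249255_at), and 249255_at against C.NO3 became 0.026. With the exchange 264734_at against Sp.NO3 became -0.63 (adjusted p = 0.879). The replicate block called 5661 probe sets and lost none of the 188. Other causes were not tested. Tukey's comparison sets groups against each other and was not run for differences of changes.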

Other observations

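Genes outside the lists that carry a symbol also changed; the 12 largest in each direction, with a signal of 200 or more and no overlap, were picked after their values were seen. Among regulators, AGL21, a MADS-box factor, rose, with signals of 714, 623 and 598 at 2 days, against 235, 236 and 297 at 8 hours (log2 difference 1.28 ± 0.13, adjusted p = 4.81e-09). AGL19, of the same family, fell, with 65.8, 43.9 and 44.6 at 2 days, against 321, 336 and 362 at 8 hours (-2.41 ± 0.23, adjusted p = 2.58e-09). The 2 factors thus moved in opposite directions. ATC, a relative of the flowering regulators of the TFL1 family, rose by 1.15 ± 0.30, with signals of 936 to 1113 at 2 days, against 340 to 583 at 8 hours.

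Wall and secreted proteins were on both sides. sks15, a SKU5-like protein, gave 1671, 2031 and 2499 at 2 days, against 883, 633 and 573 at 8 hours (1.55 ± 0.23, adjusted p = 4.86e-06), and the subtilase SBT4.12 gave 4571, 4452 and 4938 at 2 days, against 2256, 2653 and 2447 at 8 hours (0.92 ± 0.10, adjusted p = 1.86e-08). TBL37 rose by 1.17 ± 0.15 and TBL36, of the same family, fell, with a log2 difference of -1.38 ± 0.20. The asparaginase ASPGB1, which releases ammonium from asparagine, rose, with 2039, 1398 and 1517 at 2 days, against 819, 569 and 638 at 8 hours (1.27 ± 0.27, adjusted p = 0.000527). CCL, CP1 (a cysteine proteinase) and BGLU44 (a beta-glucosidase) fell, with log2 differences of -2.77 ± 0.44, -1.84 ± 0.34 and -2.04 ± 0.23. BGLU44 had 84.0, 82.0 and 79.5 at 2 days, against 335, 487 and 353 at 8 hours, a narrow range at 2 days and a wide gap to 8 hours. AER, an alkenal reductase, fell, with a log2 difference of -1.63 ± 0.26, and FMO, a flavin monooxygenase, also fell (-1.24 ± 0.16). TET12 (a tetraspanin), SP1L4 and PCME rose by 0.98, 1.15 and 0.96.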
